A study of Mus musculus with 4 samples.

Results

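Ifit1, Ifit2, Ifit3, Isg15 and Usp18 are 5 of the 11138 named genes measured on 4 arrays of mouse SVEC cells, an established endothelial line, exposed in culture to lipopolysaccharide (LPS), an outer membrane component of Gram-negative bacteria. They were found by their gene symbol in the probe annotation, and were chosen on their measured ratios of LPS over control on these arrays, so everything said of them here is a description without a test. Each gene has 1 oligonucleotide printed as 2 neighbouring spots, which makes 10 spots. The groups are LPS for 24 h and LPS for 4 h, each set against control cells on the same 2-colour array. Each time has 2 arrays, with LPS RNA in Cy5 on one and in Cy3 on the other, the dye reversal. All RNA had been amplified, and 3 of the 4 labels give a dose, 50 ng/ml. Separate cultures are not mentioned in the labels. The arrays of a time were therefore treated as 1 pair of RNAs measured again, the SD given is technical, and no p-value was computed. The model is a single cell line, and fewer responding cells or less RNA per cell cannot be told apart in such bulk samples.

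All 5 genes are textbook targets of type I interferon. The receptor for interferon activates ISGF3, a transcription factor complex that contains STAT2 and IRF9 and binds a DNA element called the interferon-stimulated response element. IFIT proteins are built of tetratricopeptide repeats. IFIT1 binds viral RNA whose cap lacks the methylation found on the cell's own messages, IFIT2 binds RNA and partners with other IFITs, and IFIT3 joins their complexes. ISG15 is a ubiquitin-like modifier that is coupled to proteins by a chain of interferon-induced enzymes, and also acts as a free protein. USP18 is the protease that removes ISG15 from its targets, and separately it binds the receptor chain IFNAR2 and damps interferon signalling. In endothelial and other cells, LPS can induce interferon through its receptor TLR4.

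Some facts of the whole series touch all values. The table holds log2 ratios of the dyes with a median of 0 per array and no intensities, so faint spots could not be removed. The labels put LPS in Cy5 on one array of each time and in Cy3 on the other, and the ratio was read as Cy5 over Cy3. The direction LPS over control is therefore likely but not stated, and if the ratio ran the other way all signs below would be turned. Across all genes the turned arrays of a pair correlated at r = 0.10 at 24 h and 0.48 at 4 h. Ratios were more widely spread at 4 h than at 24 h, with SDs of 0.978 and 1.07 over the spots of the 24 h arrays and of 1.44 and 1.43 at 4 h. Of 12 endothelial markers measured, 0 were past the 2-fold rule defined below at 24 h and Cdh5 was lower at 4 h (list medians -0.03 at 24 h and -0.04 at 4 h). The call of Cdh5 did not hold on all its spots, whose 4 h means ran from -7.25 to 0.31 over 2 oligonucleotides. Of 9 leukocyte markers, Coro1a was higher at 24 h and none was past the rule at 4 h (medians 0.06 and -0.14). Of 8 mural and fibroblast markers, Pdgfra was higher at 24 h, while Pdgfra, Acta2, Dcn and Col1a1 were higher and Lum lower at 4 h (medians 0.14 and 0.62). Of 5 epithelial markers, Cldn3 was lower at 4 h (medians -0.20 and -0.17). By the same rule 1.68% of all genes were higher and 0.799% lower at 24 h, and 8.74% and 5.77% at 4 h. The 4 h calls depend on the centring described below. With arrays centred on abundant transcripts, the 4 h mean of Acta2 was -0.81 and the median of all genes was -2.29. Ratios cannot show the level of a marker, so the labelled cell type could not be checked against its markers, and the part of these markers in the results was not tested.

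As deposited, before any sign was turned, the 10 spots changed sign with the dyes at 24 h, and 8 of 10 did at 4 h. The genes were chosen on ratios of these arrays, so these signs give no separate support. After turning, 30.5% of all genes at 24 h and 31.2% at 4 h were above 0 on both arrays. At 24 h, 10 of 10 were above 0 with LPS in Cy5 and 10 of 10 below 0 with LPS in Cy3. At 4 h, 8 of 10 were above 0 with LPS in Cy5, the exceptions being 1 spot of Ifit3 and 1 of Isg15, and 10 of 10 were below 0 with LPS in Cy3. None of the 10 spots lay at a ratio of exactly 1 on any array, the value held by 2041 to 5307 spots per array.

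After 24 h with LPS, Usp18, Ifit3 and Ifit2 had ratios close to each other, from 3.82-fold to 4.49-fold, and Ifit1 and Isg15 had smaller ones, 1.63-fold and 1.55-fold. A gene was counted as higher when its mean log2 ratio was at least 1, which is 2-fold, and each of the 2 arrays was at least 1.5-fold the same way. Usp18, Ifit3 and Ifit2 met this 2-fold rule, and 1.68% of all genes did (0.799% were lower by it, and 0 of the 5). On the array with LPS in Cy5 alone all 5 reached 2-fold, with 4.51% of all genes, and on the array with LPS in Cy3 alone these same 3 did, with 6.92% of all genes.

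Usp18, the ISG15 protease and receptor inhibitor, had the largest mean ratio of the 5. Its spots read 3.11 and 2.97 with LPS in Cy5 and 0.90 and 1.69 with LPS in Cy3, on the log2 scale. The mean was 2.17 ± 1.23 (SD, 2 arrays), or 4.49-fold, which ranked 39th among all genes. Every spot was above 0, and the arrays differed more than for any other of the 5 genes.

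Ifit3, the IFIT that joins complexes of the others, gave the closest agreement between dyes. Its spots read 2.61 and 2.01 with LPS in Cy5 and 2.06 and 1.92 with LPS in Cy3. The mean was 2.15 ± 0.22, or 4.44-fold, at rank 41. Its spots on the arrays overlapped, which was true of no other of the 5 genes at 24 h. A mouse paralogue, Ifit3b, is closely related in sequence and was not analysed here, so signal of both genes in these spots was not tested.

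Ifit2, the RNA-binding partner of other IFITs, followed. Its spots read 2.24 and 2.40 with LPS in Cy5 and 1.66 and 1.43 with LPS in Cy3. The mean was 1.93 ± 0.55, or 3.82-fold, at rank 62. Thus 4 of 4 spot readings were above 2-fold, as they were for Ifit3, while 1 of the 4 readings of Usp18 was below it.

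Ifit1, the sensor of RNA with an incompletely methylated cap, had spots at 1.11 and 0.94 with LPS in Cy5 and at 0.16 and 0.61 with LPS in Cy3. Its mean was 0.71 ± 0.45, or 1.63-fold, at rank 830. Isg15, the modifier itself, had spots at 1.20 and 0.99 with LPS in Cy5 and at 0.12 and 0.23 with LPS in Cy3. Its mean was 0.63 ± 0.65, or 1.55-fold, at rank 1027. Both genes were above 0 on every spot. Both missed the rule, with means below 1 and the array with LPS in Cy3 below 1.5-fold.

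Ordered by mean, the genes at 24 h were Usp18, Ifit3, Ifit2, Ifit1 and Isg15. The arrays of Usp18 and Ifit3 overlapped, as did those of Ifit3 and Ifit2 and those of Ifit1 and Isg15. The one step in this order without overlap lay between Ifit2 and Ifit1, whose means differed by 1.22. The median of the 5 was 1.93, beside 0.02 over all genes. All 5 were above 0 on both arrays, where 30.5% of all genes were.

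**Figure D1:**
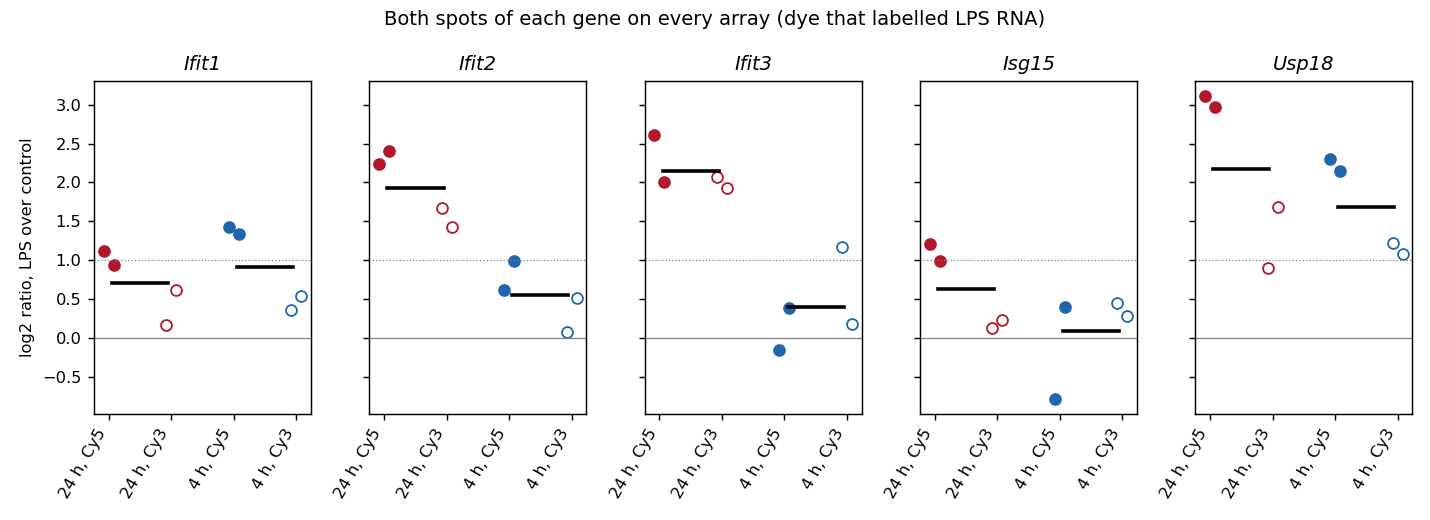
Log2 ratios of LPS over control for the 2 spots of each gene on each array, 24 h in red and 4 h in blue; filled points have LPS in Cy5, open points LPS in Cy3, black bars are the means of the 2 arrays of a time and the dotted line is 2-fold. At 24 h every point is above 0, with means from 0.63 for Isg15 to 2.17 for Usp18; at 4 h only Usp18 has both spots of both arrays above 1.

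After 4 h with LPS, Usp18 alone of the 5 met the 2-fold rule, as did 8.74% of all genes (5.77% were lower by it, and 0 of the 5). Its spots read 2.30 and 2.15 with LPS in Cy5 and 1.22 and 1.08 with LPS in Cy3. The mean was 1.69 ± 0.76, or 3.22-fold, at rank 596. When the arrays were centred on abundant transcripts instead of on the median spot, its mean turned to -0.60 at 4 h and 0 of the 5 met the rule (0.593% of all genes).

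Ifit1 came second at 4 h. Its spots read 1.42 and 1.33 with LPS in Cy5 and 0.36 and 0.54 with LPS in Cy3, for a mean of 0.91 ± 0.66, or 1.88-fold. The array with LPS in Cy5 taken alone put Ifit1 past 2-fold beside Usp18, so 2 genes were then counted (13.3% of all genes). The higher array at 4 h exceeded the higher array at 24 h for this gene, 1.38 against 1.03, and no other of the 5 showed that order.

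Ifit2 and Ifit3 lay lower at 4 h. The spots of Ifit2 read 0.61 and 0.99 with LPS in Cy5 and 0.07 and 0.52 with LPS in Cy3, for a mean of 0.55 ± 0.36, or 1.46-fold. Those of Ifit3 read -0.15 and 0.39 with LPS in Cy5 and 1.17 and 0.18 with LPS in Cy3, for a mean of 0.40 ± 0.39, or 1.32-fold. The 2 spots of Ifit3 on the array with LPS in Cy3 differed by 0.99, against a median difference of 0.27 over 12092 such spot pairs on that array.

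Isg15 lay near the array median at 4 h. Its spots read -0.78 and 0.40 with LPS in Cy5 and 0.44 and 0.28 with LPS in Cy3, for a mean of 0.08 ± 0.39, or 1.06-fold. The 2 spots with LPS in Cy5 differed by 1.18, where the median difference between such pairs was 0.19. Isg15 was also the only 1 of the 5 that was not above 0 on both arrays at 4 h, where 31.2% of all genes were.

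Ordered by mean, the genes at 4 h were Usp18, Ifit1, Ifit2, Ifit3 and Isg15, and the arrays of every neighbouring pair in this order overlapped. The median of the 5 was 0.55, beside -0.0013 over all genes. Usp18, Ifit1, Ifit2 and Ifit3 were above 0 on all 4 arrays, where 11.9% of all genes were. Usp18 was past the 2-fold rule at both times, and 0.413% of all genes were.

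Between the times, Ifit3 and Ifit2 differed and the other 3 genes did not reach the rule. A gene was counted as higher at 24 h than at 4 h when the means differed by at least 1 and both 24 h arrays lay above both 4 h arrays. Ifit3 differed by 1.75, or 3.37-fold, and Ifit2 by 1.39, or 2.61-fold. For both, every 24 h spot lay above every 4 h spot. By this rule 8.23% of all genes were higher at 24 h and 9.99% lower, and 0 of the 5 were lower.

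For Isg15 the 24 h mean exceeded the 4 h mean by 0.55, and for Usp18 by 0.48, with overlapping arrays in both cases. Ifit1 differed by -0.20. The count of 2 genes depended on which arrays were used. Without the 24 h array with LPS in Cy5, Ifit3 alone met the rule, with 14.1% of all genes. Without the 24 h array with LPS in Cy3, Ifit2, Ifit3, Isg15 and Usp18 did, with 8.29% of all genes. Without the 4 h array with LPS in Cy5, Ifit2, Ifit3 and Usp18 met it, with 1222 of 11138 genes. Without the 4 h array with LPS in Cy3, Ifit2 and Ifit3 met it, with 1226 genes. The sources used here do not say if both times share their control RNA.

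**Figure D2:**
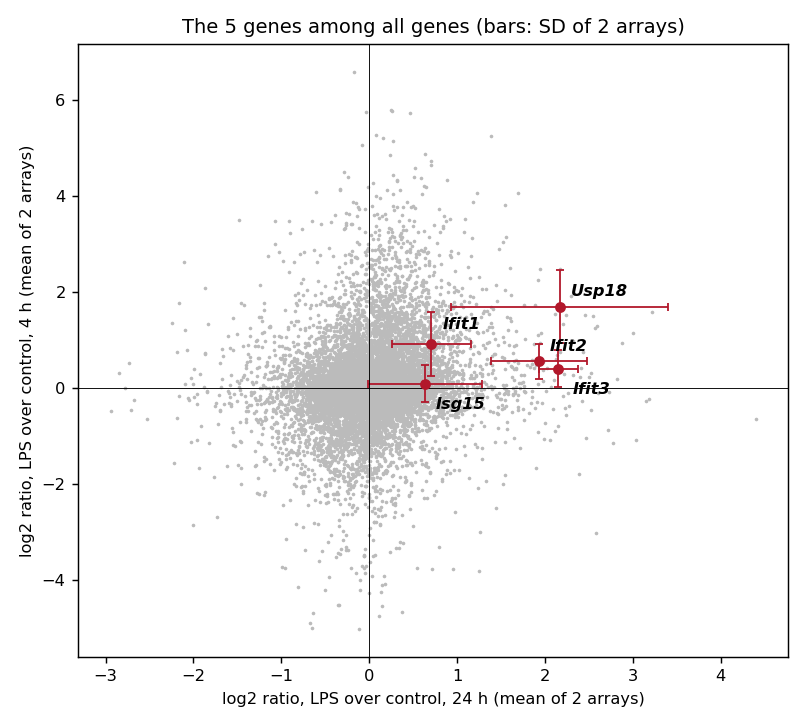
Mean log2 ratio of LPS over control at 24 h (horizontal) and 4 h (vertical) for all 11138 genes in grey and the 5 genes in red, with bars for the SD of the 2 arrays of a time. Ifit2 and Ifit3 lie far to the right at 1.93 and 2.15 with 4 h means of 0.55 and 0.40, Usp18 lies up and to the right at 2.17 and 1.69, and Isg15 and Ifit1 lie within the grey cloud.

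The 2 arrays of a time differ in which dye labelled LPS RNA, and with 1 array per orientation the dye and the array cannot be told apart. All 5 genes had a larger ratio with LPS in Cy5 than with LPS in Cy3 at 24 h, and 44.6% of all genes did. The gap was 1.74 for Usp18, 0.92 for Isg15, 0.77 for Ifit2, 0.64 for Ifit1 and 0.31 for Ifit3. At 4 h the ratio was larger with LPS in Cy5 for Usp18, Ifit1 and Ifit2 and smaller for Ifit3 and Isg15, and it was larger for 51.9% of all genes. The median SD between the arrays was 0.55 for the 5 genes and 0.32 for all genes at 24 h, and 0.39 and 0.31 at 4 h. The part of the dye in the size of these ratios was not tested.

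The zero of the 4 h scale also depended on what each array was centred on. A list of 25 measured abundant transcripts, among them actin, ferritin and glycolysis genes, had a median ratio of 0.05 at 24 h and 2.08 at 4 h, relative to the median spot. It had 2 genes higher at 24 h and 17 at 4 h, with 0 lower at both times. Among all genes 1.68% were higher at 24 h and 8.74% at 4 h. Centring on these transcripts moved the median of all genes to -0.06 at 24 h and to -2.29 at 4 h. On that scale the 5 genes lay between 0.55 for Isg15 and 2.09 for Usp18 at 24 h, and between -2.20 for Isg15 and -0.60 for Usp18 at 4 h. The calls at 24 h were the same 3 genes (1.36% of all genes). All 5 then met the rule for being higher at 24 h than at 4 h, and so did 85.8% of all genes. Differences among the 5 genes within a time are not touched by centring.

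**Figure D3:**
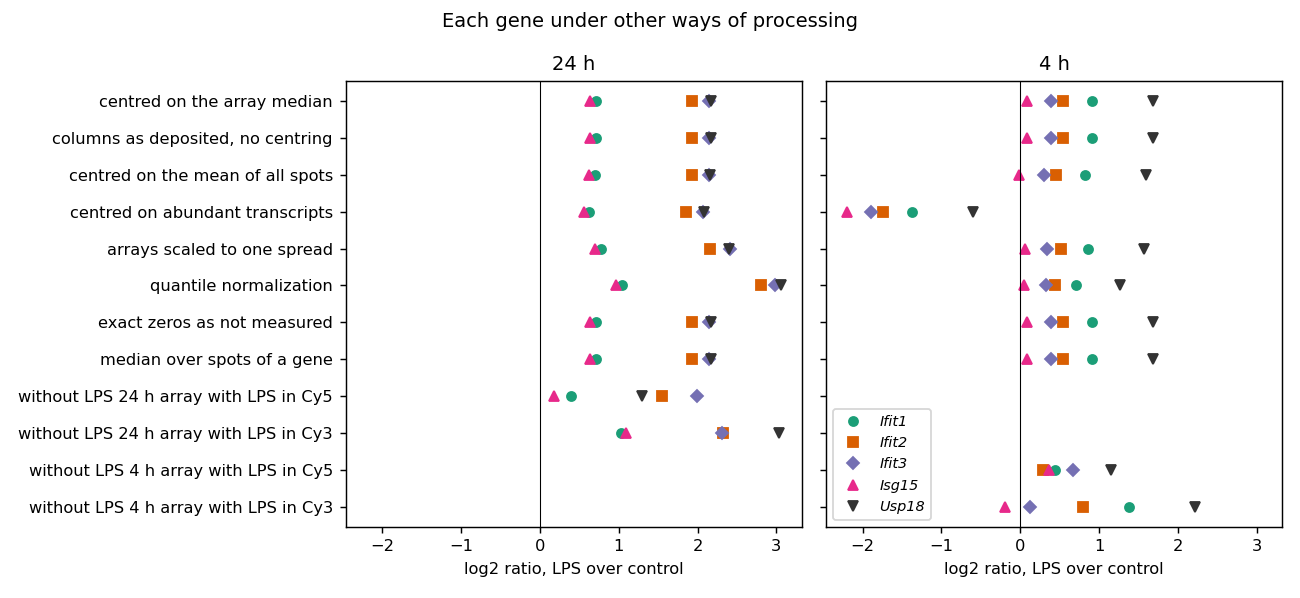
Mean log2 ratio of LPS over control for each of the 5 genes (symbols) at 24 h and 4 h under each way of processing (rows); rows that leave out an array are shown for its own time. At 24 h all points are above 0 in every row; at 4 h centring on abundant transcripts puts all 5 genes below 0, from -2.20 to -0.60, and Isg15 also changes sign in other rows.

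The promoters of 3 of the 5 genes are shown because the genes share a known control element. RefSeq windows of the build GRCm38.p6, covering 250 bases before to 50 after an annotated start, were at hand for Ifit1, Ifit2, Ifit3 and Isg15. They were searched on both strands for the core of the interferon-stimulated response element, GAAANNGAAA, which reads TTTCNNTTTC on the other strand. Matches stand in capitals below, 5′ to 3′ on the gene's own strand, with 30 bases on each side. Ifit1 lies at chr19:34640755-34640843, plus strand; Ifit3 at chr19:34583343-34583446, plus strand; Isg15 at chr4:156200845-156200926, minus strand.
Ifit1: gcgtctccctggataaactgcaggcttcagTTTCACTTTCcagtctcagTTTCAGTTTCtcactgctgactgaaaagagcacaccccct
Ifit3: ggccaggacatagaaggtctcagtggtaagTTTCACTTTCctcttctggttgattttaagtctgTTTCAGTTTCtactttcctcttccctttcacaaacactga
Isg15: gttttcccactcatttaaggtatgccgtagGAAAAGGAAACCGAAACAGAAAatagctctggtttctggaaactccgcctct

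Ifit1 and Ifit3 each held 2 matches, with the letters TTTCACTTTC farther from the start and TTTCAGTTTC nearer to it in both genes. With the start site counted as 0, the first bases of the matches lay at -104 and -85 in Ifit1 and at -156 and -122 in Ifit3. Isg15 held 3 overlapping matches on its own strand, with first bases at -78, -72 and -66. The windows of Ifit2 held 0 matches to these letters. A match was present in 3.44% of all 32851 windows and 2 or more in 0.225%. A second motif, TTCCNGGAA, the core of the element bound by STAT dimers and its own reverse complement, had 1 match in Ifit2 and 0 in Ifit1, Ifit3 and Isg15, and was present in 1.15% of windows.

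Match counts and mean 24 h ratios are only listed here, since Usp18 had no window and the 3 matches of Isg15 overlap. Isg15, with these 3, had a mean ratio of 0.63. Ifit1 and Ifit3, with the same 2 match sequences, had 0.71 and 2.15, and Ifit2, with 0 in its windows, had 1.93. A link between matches and ratios was not tested. Of the genes higher by the 2-fold rule at 24 h, 144 had a window and 14 of these (9.72%) held a match to the response element, beside 341 of 8849 measured genes (3.85%). At 4 h, 38 of 803 higher genes (4.73%) did. These shares are descriptions of the windows, with no test.

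**Figure D4:**
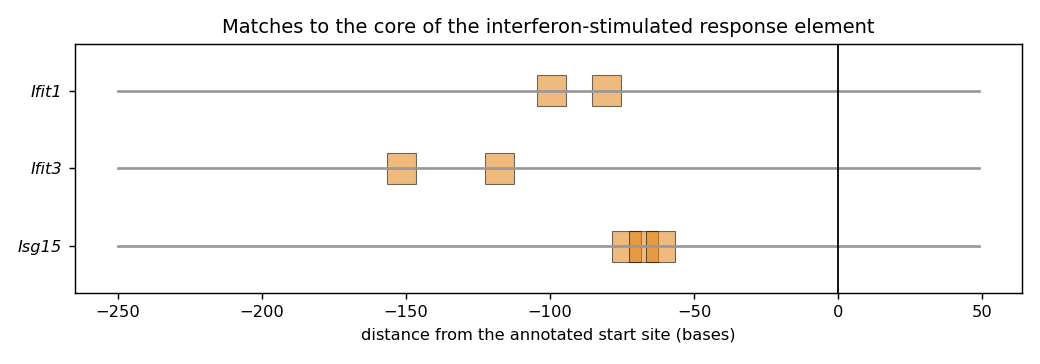
Positions of the matches to the response element core (boxes) in the promoter windows of Ifit1, Ifit3 and Isg15, in bases from the annotated start site, on the strand of the gene. Ifit1 and Ifit3 have 2 separate matches each, and Isg15 has 3 that overlap.

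Of the enzymes that couple ISG15 to proteins, none was past the 2-fold rule at 24 h, and at 4 h Trim25 was higher and Ube2l6 lower among the 4 measured. Of all genes, 1.68% were higher and 0.799% lower at 24 h, and 8.74% and 5.77% at 4 h. Herc6, the main ISG15 ligase of mice, read 2.04 and 0.21 at 24 h and -0.29 and 0.03 at 4 h (LPS in Cy5 first), for means of 1.13 ± 1.30 and -0.13 ± 0.22. It was thus above 2-fold by the mean at 24 h and missed the rule on the array with LPS in Cy3. Like Isg15, its average over spots was above 0 on both 24 h arrays and on 1 of the 4 h arrays. Its 4 spots come from 2 oligonucleotides, with spot means from 0.61 to 1.60 at 24 h and from -0.70 to 0.65 at 4 h.

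Ube2l6, the conjugating enzyme that hands ISG15 to the ligase, read 1.05 and 0.03 at 24 h and -3.21 and -4.30 at 4 h. Its means were 0.54 ± 0.72 and -3.76 ± 0.77, and its 2 spots agreed at 4 h, with means of -3.79 and -3.72. This 4 h value was far below that of Isg15, and it rests on 1 oligonucleotide. Uba7, the activating enzyme, had means of -0.65 ± 0.91 at 24 h and 0.04 at 4 h. Its 24 h arrays read 0 with LPS in Cy5 and -1.29 with LPS in Cy3, and its spot means were -1.29 and 0.00. The 24 h mean of Uba7 thus rests on 1 spot. Trim25, a ligase for ubiquitin and ISG15, had means of 0.63 ± 0.05 at 24 h and 1.70 ± 0.55 at 4 h, and turned to -0.58 at 4 h with centring on abundant transcripts. The medians of the 4 enzymes were 0.59 at 24 h and -0.04 at 4 h.

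Among 5 measured proteases that have been reported to act on ISG15 besides USP18, none was past the rule at 24 h. At 4 h Usp16 was higher, at 1.08 ± 0.66, and Usp21 and Usp24 were lower, at -1.30 ± 0.20 and -1.13 ± 0.41. At that time 8.74% of all genes were higher and 5.77% lower. Usp14 lay at -0.44 ± 0.67 at 24 h and 0.99 ± 0.76 at 4 h, and Usp2 at 0.00 and -0.03. None of them was past the rule at both times in the same direction, as Usp18 was. Higher at both times were 0.413% of all genes, and Usp18 was chosen on these ratios. The value of Usp16 turned to -1.21 at 4 h with centring on abundant transcripts.

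Stat2, the ISGF3 subunit to which USP18 also binds, was the 1 gene of the 7 measured in the receptor and ISGF3 list past the rule at 24 h, at 1.41 ± 0.17. At 4 h Stat2 was again higher, at 1.14 ± 0.66, and so was Socs3, an inhibitor of cytokine receptors, at 4.18 ± 1.35. Over all genes, 1.68% were higher at 24 h and 8.74% at 4 h. Socs3 had a mean of -0.01 ± 0.97 at 24 h. The arrays of Stat2 read 1.53 and 1.29 at 24 h and 1.60 and 0.68 at 4 h. With centring on abundant transcripts its 4 h mean turned to -1.15.

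The receptor chains were short of the rule. Ifnar2, the chain to which USP18 binds, lay at 0.17 ± 0.08 at 24 h and -0.73 ± 0.54 at 4 h, and Ifnar1 at 0.95 ± 0.91 and 0.00 ± 0.65. Irf9, the DNA-binding subunit of ISGF3, lay at 0.48 ± 0.10 and -0.20 ± 0.73, and Socs1 at 0.05 and 0.22. The medians of the list were 0.17 at 24 h and 0.07 at 4 h.

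In the path by which TLR4 leads to interferon, Irf7 was past the rule at 24 h, and none of the 9 measured genes was at 4 h. Higher by it were 1.68% of all genes at 24 h and 8.74% at 4 h. Irf7, the factor that amplifies interferon production, read 1.35 and 0.99 at 24 h and -0.35 and -1.19 at 4 h, for means of 1.17 ± 0.26 and -0.77 ± 0.60. Ifnb1, the interferon beta gene, lay at 0.55 ± 1.06 at 24 h and -0.37 ± 0.52 at 4 h. Tlr4 lay at 1.02 ± 0.79 and 0.76 ± 1.67, its 2 oligonucleotides giving spot means from -0.31 to 3.28 at 24 h. Cd14 lay at 0.03 and 0.81, and Tbk1, a kinase upstream of interferon genes, at -0.03 and 0.57. The medians were 0.13 at 24 h and 0.08 at 4 h.

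Subunits of the translation initiation factor eIF3, which human and mouse IFITs were reported to bind, had 0 of 9 genes past the rule at 24 h, where 1.68% of all genes were higher, and 5 higher at 4 h, where 8.74% of all genes were. These were Eif3c at 4.39 ± 3.24, Eif3i at 2.76 ± 1.11, Eif3k at 2.56 ± 0.19, Eif3e at 1.39 ± 0.43 and Eif3f at 1.25 ± 0.37. The 4 h median of the subunits was 1.25, beside 2.08 for the abundant transcripts, and the 4 h means of Eif3e and Eif3f lay below 0 when the arrays were centred on those. The other subunits with the largest means at either time were Eif3a, at -1.11 and -0.83, Eif3j1, at -0.85 and -0.27, Eif3d, at -0.48 and -0.45, and Eif3m, at -0.18 and 0.29, each at 24 h and 4 h.

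Of the enzymes that build the mRNA cap IFIT1 reads, Cmtr1, which methylates the first transcribed nucleotide, lay at 0.89 ± 0.53 at 24 h and 0.37 ± 0.52 at 4 h. Rngtt, the capping enzyme, was the 1 of 3 past the rule, at 1.23 ± 0.79 at 4 h with 0.10 at 24 h. It turned to -1.05 at 4 h with centring on abundant transcripts. By the rule 8.74% of all genes were higher at 4 h. Rnmt, which methylates the cap guanine, lay at 0.17 and -0.17. Sting1, an adaptor reported to bind IFIT1 in human cells, lay at 0.02 ± 1.49 at 24 h and 0.38 ± 0.30 at 4 h.

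Among 6 other modifiers of the ubiquitin type, none was past the rule at 24 h, and Nedd8 (1.59 ± 0.23) and Sumo3 (2.21 ± 2.10) were higher at 4 h. Higher over all genes were 1.68% at 24 h and 8.74% at 4 h. Nedd8 and Sumo3 turned below 0 at 4 h with centring on abundant transcripts, to -0.70 and -0.08. Ufm1 lay at 1.19 ± 1.72 at 24 h with arrays at -0.03 and 2.41, and at 0.88 ± 0.24 at 4 h. Fau lay at 0.35 and -0.91, Urm1 at 0.00 and 0.96 and Sumo2 at 0.02 and 0.34, each at 24 h and 4 h. Both 24 h arrays of Urm1 read exactly 0, which may stand for a spot not measured. No such modifier met the 2-fold rule at 24 h, and neither did Isg15.

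**Figure D5:**
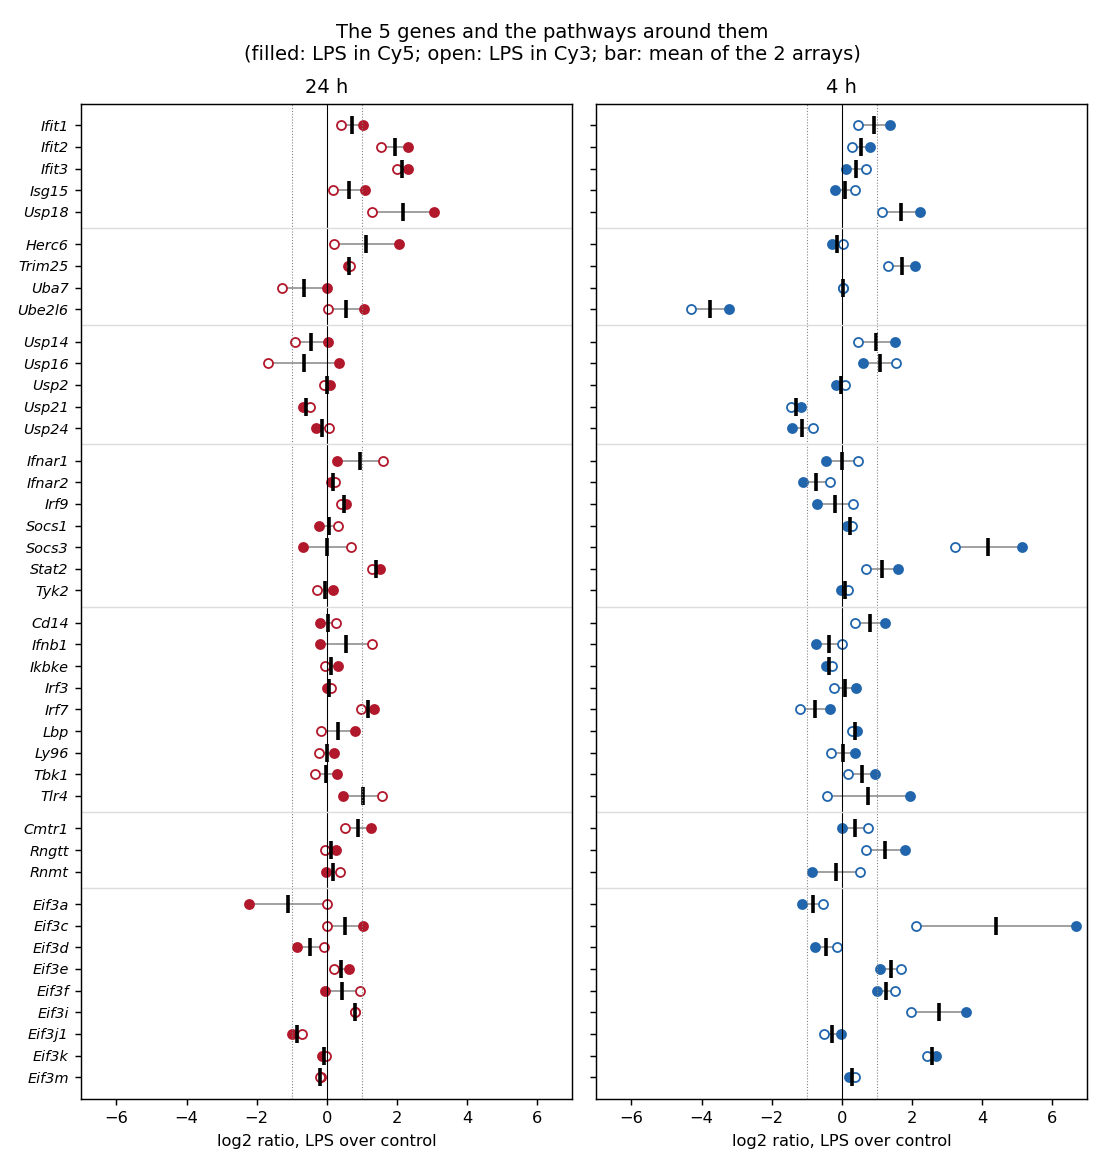
Log2 ratios of LPS over control at 24 h (left) and 4 h (right) for the 5 genes and, below them, the ISG15 enzymes, other proteases, the interferon receptor and ISGF3 list, the path from TLR4, the cap enzymes and eIF3; filled points have LPS in Cy5, open points LPS in Cy3, black bars are means and dotted lines mark 2-fold. At 24 h Usp18, Ifit2, Ifit3, Stat2 and Irf7 are the genes past the rule; at 4 h Ube2l6 lies lowest at -3.76 and Eif3c highest at 4.39.

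The 3 Ifit genes lie in 1 cluster on chromosome 19, Isg15 on chromosome 4 and Usp18 on chromosome 6 in the RefSeq table. The 4 nearest protein-coding genes on each side of the 3 places were looked up. Of the 14 measured, none was past the 2-fold rule at 24 h, where 1.68% of all genes were higher and 0.799% lower. Around the Ifit cluster, Acta2, the smooth muscle actin, lay at 0.39 ± 0.17 at 24 h and was higher at 4 h (1.48 ± 0.67, with -0.81 when centred on abundant transcripts). At 4 h 8.74% of all genes were higher. At 24 h and 4 h, Fas lay at 0.40 and -0.42, Ch25h at -0.24 and 0.01, Pank1 at -0.43 and 0.05 and Htr7 at 0.21 and -0.12. Around Isg15, Agrn lay at -0.59 ± 1.92 and 1.03 ± 1.46, 9430015G10Rik at -0.66 and -0.62, Noc2l at 0.08 and 0.21 and Ttll10 at 0.11 and -0.12. Around Usp18, Bid lay at 0.34 and 0.92, Slc6a12 at 0.46 and 0.41, Tuba8 at 0.10 and 0.41 and Pex26 at 0.16 and -0.00010. The 24 h medians of the neighbours were 0.11, -0.25 and 0.25 for the 3 places, beside 1.93 for the 5 genes, which were chosen on their ratios.

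The mean profile of the 5 genes was 1.96 and 1.08 at 24 h and 0.87 and 0.58 at 4 h (LPS in Cy5 first). Likeness to it was measured as the Euclidean distance over these 4 arrays on the log2 scale. The nearest of all other genes was Ifi203, an interferon-inducible gene of the p200 family, at 0.21, with means of 1.40 ± 0.54 at 24 h and 0.65 ± 0.19 at 4 h. Samhd1, an antiviral enzyme that breaks down deoxynucleotides, followed at 0.35 (1.46 and 0.89), then Dusp16, a phosphatase of MAP kinases, at 0.43 (1.34 and 0.59). Vcam1, the endothelial adhesion molecule for leukocytes, came next at 0.57 (1.61 and 0.44) and Ncl, the nucleolar protein nucleolin, at 0.58 (1.52 and 1.06). Of the 5 genes themselves, Ifit2 lay nearest to the mean of the other 4, at 0.83, and Usp18 farthest, at 2.30. Spots of Ifi203 may share signal with related family members, which was not tested.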

How the data were processed

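Per the labels, amplified RNA of LPS-treated and control SVEC cells was hybridised to 2-colour long-oligonucleotide arrays. The authors deposited log2 ratios of the 2 dyes. The unit was read from the values, since 2 raised to the size of the value falls on steps of 0.01 within 2 hundredths of a step for at least 99.96% of spots. The sources used here do not give the scanner, the background correction or the normalization. Spots with exactly 1 symbol were used, 24344 of 32448.

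Each array was centred on its median, dye-reversal columns were turned in sign, spots of a gene were averaged, and then the 2 arrays of a time (Python 3.11.15, numpy 2.4.6, pandas 2.3.3, figures with matplotlib 3.10.9). The code of the rules was run on simulated data. How well the rules work at the spread of the real arrays was not tested. The number of arrays limits the precision. Of the 5 genes, 4 were found in the RefSeq table by Entrez identifier and Isg15 by symbol.

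Members, lists and rules were chosen with earlier results of these data known. Named are the 5 genes, per list all genes past the 2-fold rule and up to 4 others with the largest means, and the 5 nearest profiles. Of the marker lists only genes past the rule are named, and of the abundant transcripts none. Listed IFIT relatives were not analysed here, nor were listed genes without a value. Alternatives were other centring, scaling, quantile normalization, thresholds, exact zeros as not measured, spot medians and leaving out each array; single spots were added after seeing the data.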

Additional observations from a re-analysis of the deposited data

Results flagged for a closer look

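For 8 genes named in the report, none of them among the 5, both arrays of one time lay on one side of 0 and both of the other time on the opposite side. The difference was not tested, and the share of all genes with this pattern was not counted. Above 0 on both arrays were 30.5% of all genes at 24 h and 31.2% at 4 h, so nothing is read into the 8. The 24 h mean exceeded the 4 h mean by 4.30 (log2) for Ube2l6, by 1.94 for Irf7, by 1.26 for Fau, by 0.89 for Ifnar2, by 0.34 for Htr7 and by 0.23 for Ttll10. The difference of 24 h minus 4 h was -2.64 for Eif3k and -0.47 for Eif3m. Groups of 2 arrays are too small to look for an outlying array.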

How the results depend on the processing

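The labels do not tell whether the arrays of a time come from separate cultures, and without intensities faint spots stay in. Each array pairs LPS with control RNA, but with the arrays treated as 1 RNA pair per time no test was made. The labels give no replicate numbers that would pair arrays across the times. Centring on abundant transcripts gave 0 genes of the 5 past the 2-fold rule at 4 h, 5 higher at 24 h than at 4 h, a 4 h median of -1.74 and, for Usp18 at 4 h, -0.60. This centring subtracts 1 constant per array, taken from a list whose median ratio was 2.08 at 4 h and 0.05 at 24 h. Quantile normalization gave a 24 h median of 2.81; the cause was not tested. Leaving out 1 array in turn gave 3 to 5 genes past the rule at 24 h, 1 to 2 at 4 h and 1 to 4 for the difference between times, and medians of 1.30 to 2.31 at 24 h and 0.45 to 0.80 at 4 h. In all other alternatives run, the 3 calls at 24 h, the 1 at 4 h and, apart from quantile normalization with 3, the 2 for the difference stayed at these numbers. Leaving out 1 of 2 arrays cannot move a mean by more than the SD between them, and the median of 2 spots is their mean. No spot of the 5 genes lay at a ratio of exactly 1, and array medians were already 0. Those settings could therefore not move a value past the SD. Of 90 values of single genes under alternatives, these settings included, 82 moved by no more than the SD between arrays and 8 moved further. A sign opposite to the reported one was found in 7, which were all 5 genes at 4 h with centring on abundant transcripts, and Isg15 at 4 h with centring on the mean of all spots (-0.011) and without the 4 h array with LPS in Cy3 (-0.19). Of these 7, Usp18 alone was past the 2-fold rule as reported. Over all genes, 187 were higher at 24 h, against 409 with quantile normalization, 346 at 1.5-fold, 73 at 3-fold and 388 by the mean alone. The 89 lower at 24 h became 148, 183, 15 and 280 under the same settings, 141 with centring on abundant transcripts and 144 with arrays scaled to one spread. Without the 24 h array with LPS in Cy5, 771 were higher and 310 lower, and without the one with LPS in Cy3, 502 and 818. At 4 h, centring on abundant transcripts turned 973 higher and 643 lower into 66 and 9675, and 3-fold gave 569 and 306. Without the 4 h array with LPS in Cy5 the counts were 1376 and 1007, and without the one with LPS in Cy3, 1476 and 996. For the difference between times, centring on abundant transcripts turned 917 and 1113 into 9560 and 73, and leaving out the 24 h array with LPS in Cy5 gave 1576 and 1405, the 24 h array with LPS in Cy3 923 and 1582, the 4 h array with LPS in Cy5 1222 and 1434 and the 4 h array with LPS in Cy3 1226 and 1532.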
